A study of Macaca mulatta with 20 samples.

Results

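The 75 genes described here encode proteins of the cytosolic ribosome, 30 of the small subunit (RPS) and 45 of the large subunit (RPL), measured in whole blood of rhesus macaques. They were chosen by their names in the array annotation used here. The rule took RPL or RPS with a number, alone or followed by A or X, and RPLP0 to RPLP2. Every such gene was taken if a probe of it was well above background on at least 5 of 20 arrays. All 75 gene names that fit had such a probe, 142 of their 149 probes passed, and the probe with the highest mean signal stands for each gene. They are 75 of 25992 gene names on the array, and each comparison was fitted on its own over all 19961 probes that passed the same filter.

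Blood for RNA was drawn from 8 animals that received 10 Gy X-rays to the thorax, a partial-body dose that covers the lungs. The 4 groups are pre-irradiation samples of animals not yet exposed, and samples taken 2, 5 and 30 days after exposure, with 5 arrays each, and no other treatment separates them in the labels. Ages of the animals on single arrays were not given in the labels. There was no sham-irradiated group, so time, repeated bleeding and dose cannot be told apart. Arrays with 1 replicate number were taken as 1 animal, since the study's methods state that comparisons were paired by animal, with RNA pooled from 2 animals in 1 case that the labels do not mark. The RNA was depleted of globin transcripts and hybridized to human oligonucleotide arrays, which limits the macaque measurement to transcripts similar enough to the human probe.

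Ribosomal proteins are made in matched amounts and assembled with ribosomal RNA in the nucleolus. Their mRNAs carry a terminal oligopyrimidine tract at the 5′ end, through which growth signals switch their translation, and they are among the most abundant mRNAs of lymphocytes and immature blood cells. Some ribosomal proteins also act outside the ribosome: RPL5 and RPL11 bind MDM2 when ribosome assembly is disturbed, which stabilizes p53, and mutation of RPS19 and several others causes Diamond-Blackfan anaemia.

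Because these genes have many processed pseudogenes with nearly the same sequence, the probes are shown for the genes on which the results turn. RPS3A, a protein of the small subunit platform, has 5 probes that passed, and 3 of them lie on overlapping positions of human chromosome 4 (hg19, plus strand, per the array annotation). In these 3 probes, capitals mark bases at which another of the 3 has a different base at the same position.
RPS3A probe at chr4:152024067-152024126: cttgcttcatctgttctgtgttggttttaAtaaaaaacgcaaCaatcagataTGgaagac
RPS3A probe at chr4:152024086-152024145: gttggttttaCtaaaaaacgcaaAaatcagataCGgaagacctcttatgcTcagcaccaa
RPS3A probe at chr4:152024088-152024146: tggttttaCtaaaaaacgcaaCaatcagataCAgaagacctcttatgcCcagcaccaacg
Each pair of these probes differed at 3 bases, over 41, 39 and 58 shared positions. The other 2 probes of the gene carry no capitals, and the first of them was the brightest and stands for RPS3A below.
RPS3A probe at chr4:152024154-152024213: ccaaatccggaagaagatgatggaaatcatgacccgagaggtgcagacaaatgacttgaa
RPS3A probe at chr4:152025345-152025404: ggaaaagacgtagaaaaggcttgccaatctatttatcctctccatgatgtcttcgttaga
The single passing probes of RPL11, RPL9 and RPL28, and the brightest of RPL3, are given because these genes stood at the ends of the list at day 30 or day 2. The RPL9 and RPL3 probes are on the minus strand, and the RPL3 placement spans more than 60 bases because it crosses an intron.
RPL11 probe at chr1:24021173-24021232: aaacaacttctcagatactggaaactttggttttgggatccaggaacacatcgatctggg
RPL9 probe at chr4:39458032-39458091: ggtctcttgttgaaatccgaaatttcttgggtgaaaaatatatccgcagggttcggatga
RPL28 probe at chr19:55899332-55899391: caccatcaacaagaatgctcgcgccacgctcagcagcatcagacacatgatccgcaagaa
RPL3 probe at chr22:39709699-39710135: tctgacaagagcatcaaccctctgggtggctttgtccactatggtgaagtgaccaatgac
The array annotation places all these probes on transcripts of the named genes, although at most 1 of the 3 overlapping RPS3A probes can match a transcript base for base at the positions where they differ. Whether the signal of a probe came from the named gene or from a near-identical copy in the macaque genome was not tested.

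Levels are given as log2 processed signal minus the 75th percentile of the same array, so that a level of 7 lies 7 log2 units above that percentile. Of the 75 chosen probes, 73 were well above background on all 20 arrays. RPL23A has no value on the array of day 30 replicate 5, which leaves 4 pairs in its day 30 comparisons, and was well above background on the other 19. RPL27A was so on 6, and the level of RPL27A, between -5.90 and -3.45, is close to background. No chosen probe was saturated on any array. Their GC content lay between 35.0% and 55.0% with a median of 45%, the median of all probes tested.

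The median level of the 75 genes was 7.59, 7.60, 7.38, 7.41 and 7.24 on the 5 pre-irradiation arrays, replicates 1 to 5. At day 2 it was 6.62, 7.54, 7.25, 6.99 and 7.24. At day 5 it was 7.18, 7.72, 7.34, 8.08 and 7.34. At day 30 it was 7.09, 7.53, 7.69, 7.39 and 7.46. The group means were 7.45 ± 0.15, 7.13 ± 0.35, 7.53 ± 0.37 and 7.43 ± 0.22 (SD, n = 5), and the ranges of all 4 groups overlapped. The array of day 2 replicate 1 was the lowest of all and that of day 5 replicate 4 the highest.

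**Figure D1:**
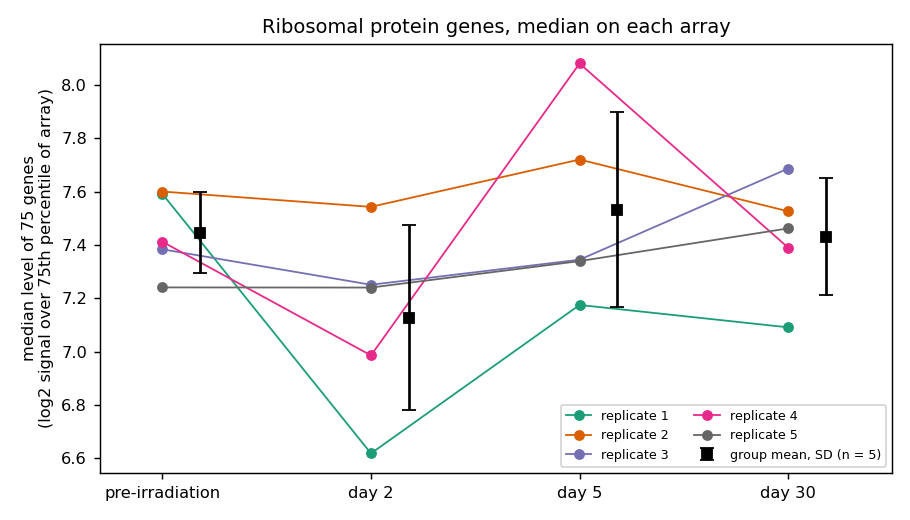
Median level of the 75 ribosomal protein genes on each array (y axis, log2 signal over the 75th percentile of the array) in the 4 groups (x axis, evenly spaced). Coloured points joined by lines are replicates 1 to 5, and black squares with bars are group means with their SD. Day 2 replicate 1 lies at 6.62 and day 5 replicate 4 at 8.08, and the groups overlap.

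The members moved together across the arrays. On the array of day 5 replicate 4, 61 of the 75 genes had their highest level of all 20 arrays, as did 7.80% of all probes tested. On the array of day 2 replicate 1, 40 of the 75 had their lowest level, as did 5.29% of all probes. Over the 20 arrays, the correlation of a member with the list median, to which it contributes, had a median of 0.82 and ranged from 0.39 for RPS28 to 0.95 for RPL8. For 73 members it was over 0.5, against 9.95% of all probes tested. The points share animals and slides, so this is a description only. Members that move together do not count as separate observations in the counts that follow.

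At day 2 the change from pre-irradiation was below 0 for 68 of the 75 genes, with a median log2 change of -0.20, where the median of all probes was -0.04 and 55.1% of them were below 0. The small and the large subunit had the same median to 2 decimals, -0.20 each, with 25 of 30 and 43 of 45 genes below 0. The 5 animals did not share the difference. The list median changed by -0.63 in replicate 1 and by -0.36 in replicate 4, and by -0.05, -0.02 and 0.09 in replicates 2, 3 and 5. The sign of the median was kept under each scaling tried, but its size was not. It was -0.69 with normexp background correction, with 74 genes below 0, where the median of all probes was 0.17 and 36.8% were below 0. The deposited log2 values hold 20 of the members and gave -0.06, with 13 below 0 (all probes 0.12). Over the same 20 members the values reported here gave -0.09, with 16 below 0. Without replicate 1 the list median was -0.12, with 58 genes below 0.

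A gene was called where its limma p was under 0.005 and its FDR over all probes under 10%. At day 2, 0 of 75 members were called, against 0.0601% of all probes, and 0 had p under 0.005, against 2.55%. With the looser limit of an unadjusted p under 0.05, 0 members were higher, against 8.47% of all probes, and 1 was lower, against 6.55%. The lower members numbered 8 with quantile normalization, 33 with normexp and 5 without replicate 5. They numbered 0 without replicate 1, 3 or 4, without pairing by animal, or with the slide as block. The shares of all probes lower at this level in these fits are not given, so these counts have no background here. The groups overlapped for every member, where 0.536% of all probes were wholly higher and 1.09% wholly lower. The 1 lower gene was RPL3, a core protein near the peptidyl transferase centre. Its levels were 7.06, 7.46, 7.49, 7.27 and 6.90 before irradiation and 6.27, 7.29, 7.14, 6.77 and 6.64 at day 2. The groups overlapped, but RPL3 was lower in 5 of 5 animals, by a mean log2 change of -0.41 (SE 0.15, limma adjusted p = 0.28), or 0.751-fold. Its change also lay below that of the list median of the same animal in 5 of 5 pairs, with differences from -0.35 to -0.12. Its second probe gave -0.35.

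Another 6 members were lower in every animal at day 2, so that 7 of 75 were, or 9.33%, against 8.19% of all probes. They were RPL22, a protein known for its part in T cell development, RPL28, RPLP2 of the acidic stalk, RPL36, and RPL19 and RPL24, which contact the small subunit. Their mean log2 changes lay between -0.30 for RPL22 and -0.16 for RPL24, with limma adjusted p of 0.40 and 0.61. No member was higher in every animal, as 6.17% of all probes were.

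At day 5, the change was above 0 for 63 of the 75 genes, with a median of 0.12 (all probes 0.03), but both the size and the sign moved with the scaling and with 1 animal. The median was 0.00 with median scaling and -0.03 with quantile normalization, and without replicate 4 it was -0.02 with 35 genes above 0. The deposited log2 values hold 20 of the members and gave 0.46, with 19 above 0. Over the same 20 members the values reported here gave 0.49, with 20 above 0, against 0.12 over all 75. The 20 therefore do not stand for the whole list. In the deposited values 5 members were higher at an unadjusted p under 0.05, against 9.34% of their probes. In single animals the list median changed by -0.26, 0.09, 0.10, 0.68 and 0.10. The small subunit median was 0.23 and the large subunit median 0.11, and the difference between the subunits was not tested. No member was called, as no probe was (0.0%), and 0 members had p under 0.005, against 1.58% of all probes.

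With an unadjusted p under 0.05, 8 members (10.7%) were higher at day 5, against 7.35% of all probes, and 0 were lower, against 3.82%. The 8 were RPL11, RPL17, RPL31, RPL41, RPL9, RPS27A, RPS3A and RPS7. Without replicate 2 or without replicate 4, 0 members passed this level, against 5.61% and 7.35% of all probes. Without replicate 1, 16 did, against 6.34%. With quantile normalization 2 did, with median scaling 1 and with normexp background correction 20, against 5.39%, 3.74% and 6.55% of all probes. The groups overlapped for every member, where 0.326% of all probes were wholly higher and 0.316% wholly lower. RPL17, a protein at the exit of the peptide tunnel, was higher in 5 of 5 animals. Its levels were 4.64, 5.15, 4.39, 4.86 and 4.68 before irradiation and 4.70, 5.81, 4.62, 6.15 and 5.45 at day 5, and the groups overlapped. The mean log2 change was 0.60 (SE 0.20, limma adjusted p = 0.37), or 1.52-fold. RPS3, which lies at the mRNA entry and is also known as a DNA repair factor, was the other gene higher in every animal, by 0.30 (SE 0.16, limma adjusted p = 0.53). The 2 genes make up 2.67% of the members, against 7.24% of all probes, and 0 were lower in every animal, against 5.86%.

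At day 30 the median change of the list was 0.03 (all probes -0.02), with 42 genes above and 33 below 0. The median was -0.12 with normexp (all probes 0.11), -0.07 without replicate 3 and -0.02 without replicate 5. With the deposited log2 values it was 0.48 (all probes 0.12), with 19 of 20 members above 0. Over the same 20 members the values reported here gave 0.44, with 19 above 0, against 0.03 over all 75. The 20 therefore do not stand for the whole list. In the deposited values 5 members were higher at an unadjusted p under 0.05, against 13.7% of their probes. Single genes spread more widely than at day 2. The standard deviation of the change over the 75 members was 0.29 at day 30, 0.23 at day 5 and 0.13 at day 2. That of all probes is not given, so the wider spread cannot be called particular to these genes. No member was called, as no probe was (0.0%). At p under 0.05 without adjustment, 6 members (8.0%) were higher, close to the 7.43% of all probes, and 1 was lower (1.33%), against 10.1%. The 6 became 3 without replicate 3, 3 without replicate 4 and 9 without replicate 1, against 6.62%, 6.33% and 5.86% of all probes. They became 10 with median scaling, 10 with an intensity trend in the spread and 10 with the slide as block, against 9.27%, 8.07% and 4.24%. The 1 lower member became 0 when any replicate was left out, and 8 with normexp. The shares of all probes lower at this level in these fits are not given, so these counts have no background here.

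**Figure D2:**
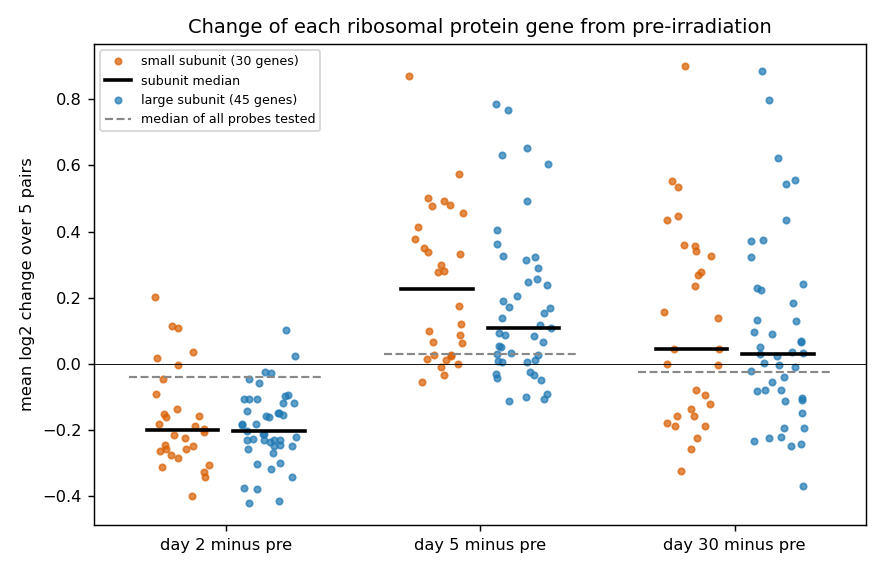
Mean log2 change from pre-irradiation over 5 animals (y axis) of each small subunit gene (orange) and large subunit gene (blue) at days 2, 5 and 30. Black bars are subunit medians and dashed lines the median of all probes tested. At day 2, 68 of 75 genes lie below 0, and at day 30 RPS3A, RPL11 and RPL9 lie highest.

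RPL11, the partner of RPL5 and 5S RNA and a binder of MDM2, had the smallest p at day 30 and was the only member with p under 0.005, where 3.14% of all probes were. Its levels were 6.04, 5.98, 5.82, 5.79 and 6.40 before irradiation. They were 5.10, 6.75, 5.93, 5.41 and 6.72 at day 2 and 5.97, 7.53, 6.04, 7.57 and 6.86 at day 5. At day 30 they were 6.65, 6.72, 7.57, 6.72 and 6.81, all above the highest level before irradiation, whereas days 2 and 5 overlapped with it. The mean log2 change at day 30 was 0.88 (SE 0.22, limma adjusted p = 0.15), or 1.85-fold, with higher levels in 5 of 5 animals. It passed the call under 3 of the alternatives, with the values given in the closing section. RPL11 exceeded the list median of the same animal in 5 of 5 pairs, by 0.15 to 1.38.

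RPS3A had levels of 6.19, 6.30, 5.47, 5.54 and 6.00 before irradiation and 6.36, 6.86, 7.59, 6.51 and 6.66 at day 30. The groups did not overlap, and the change was 0.90 (SE 0.28, limma adjusted p = 0.18), with 5 of 5 animals higher. RPL9, which lies near the base of the stalk that recruits elongation factors, had levels of 5.31, 5.68, 4.93, 5.15 and 5.45 before irradiation and 5.78, 6.02, 6.83, 5.80 and 6.07 at day 30. Its groups did not overlap either, and its change was 0.80 (SE 0.25, limma adjusted p = 0.18). These 3 genes were all members whose day 30 levels lay wholly above those before irradiation, 4.0% of the list against 0.852% of all probes. None lay wholly below, as 1.19% of all probes did. In each of the 3, replicate 3 changed most, by 1.74 for RPL11, 2.12 for RPS3A and 1.90 for RPL9, and without replicate 3 their changes were the lowest of any left-out replicate, 0.67, 0.60 and 0.52.

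**Figure D3:**
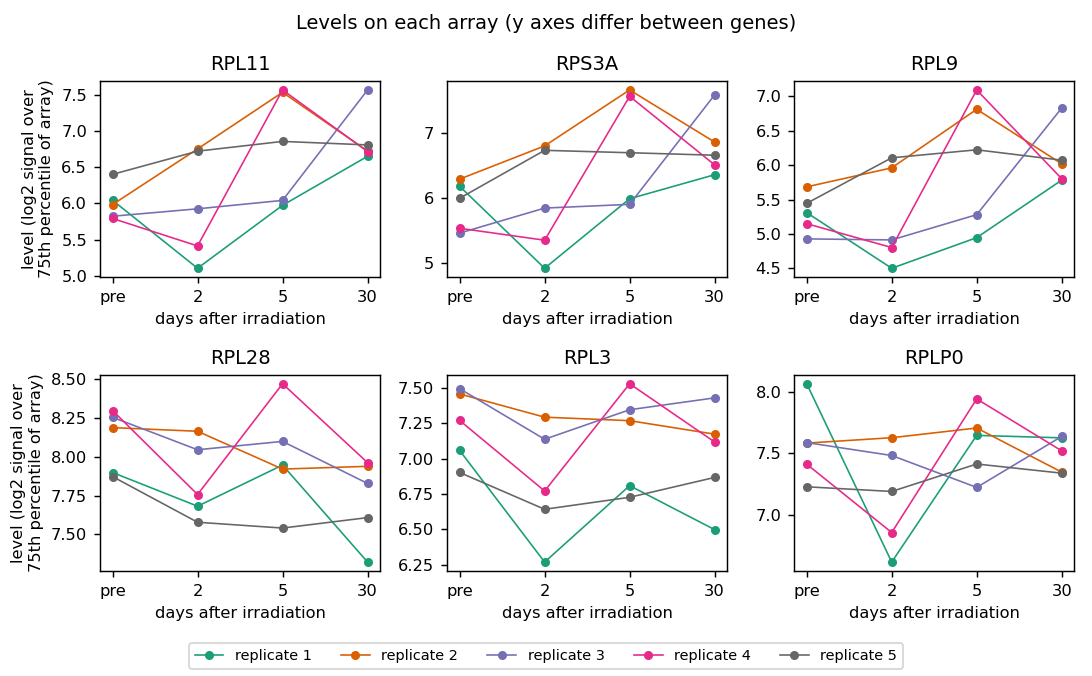
Levels (y axis, log2 signal over the 75th percentile of the array, with a different scale for each gene) of RPL11, RPS3A, RPL9, RPL28, RPL3 and RPLP0 before and 2, 5 and 30 days after irradiation (x axis, evenly spaced). Lines join the arrays of replicates 1 to 5. RPL11, RPS3A and RPL9 lie above all their pre-irradiation levels at day 30, and RPL28 is then lower in every animal.

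The other genes higher at this level at day 30 were RPLP1, RPL41 and RPS23. RPLP1, a paired acidic protein of the stalk, was higher in 5 of 5 animals by 0.56 (SE 0.20), and its partner RPLP2 was lower in 3 of 5 animals, with a mean of -0.22 (SE 0.19). RPL41, the smallest ribosomal protein, had 0.62 (SE 0.23), with 4 of 5 animals higher. RPS23, at the decoding site, had 0.55 (SE 0.23), with 5 of 5 animals higher. The limma adjusted p of these 3 genes lay between 0.22 and 0.27. RPS9, RPS7 and RPS3 were also higher in every animal, by 0.36, 0.54 and 0.34. In all 8 of 75 members were higher in every animal, 10.7% against 7.41% of all probes.

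RPL28, a large subunit protein without a bacterial counterpart, stood at the other end. Its levels were 7.90, 8.19, 8.25, 8.30 and 7.87 before irradiation and 7.32, 7.94, 7.83, 7.96 and 7.61 at day 30. The groups overlapped, and 5 of 5 animals were lower, with a mean log2 change of -0.37 (SE 0.16, limma adjusted p = 0.28), or 0.774-fold. RPS28, at the mRNA exit, was lower in 5 of 5 animals, with a mean of -0.32 (SE 0.20, limma adjusted p = 0.43) and -1.02 in replicate 1. RPL3 was the other gene lower in every animal, with -0.22. These 3 genes make up 4.0% of the members, against 10.5% of all probes.

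Several probes of 1 gene gave close values. Of the 75 genes, 39 had more than 1 passing probe, which gives 67 further probes. For the 54 of them with a level within 4 log2 units of the brightest probe, the median distance from its change was 0.05 at day 2, 0.07 at day 5 and 0.07 at day 30, and the largest was 0.30 at day 30. The 5 probes of RPS3A had changes of 0.90, 0.79, 0.82, 0.91 and 0.86 at day 30, including the 3 printed above that differ at single bases. The 3 probes of RPL17 had 0.55, 0.45 and 0.53. Dim probes departed more, as for RPS23, whose second probe lay at a mean level of -2.83 and had -0.36 where the chosen one had 0.55. RPL13A and RPL21 had passing probes placed on more than 1 human chromosome. RPL11, RPL9 and RPL28 have no second passing probe.

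**Figure D4:**
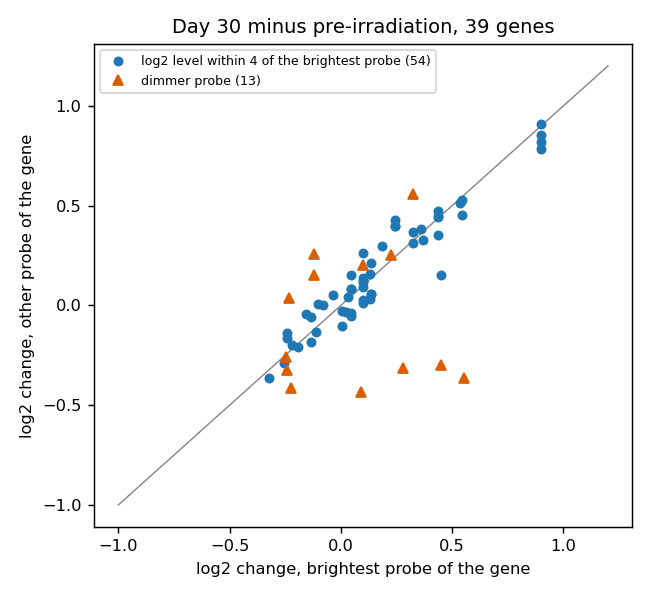
Log2 change at day 30 of each further probe (y axis) against that of the brightest probe of the same gene (x axis), for 39 genes. Circles are 54 probes within 4 log2 units of the brightest in level and triangles 13 dimmer ones, and the line marks equal change. The circles lie within 0.30 of the line, while a dim probe of RPS23 lies at -0.36 against 0.55.

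Between the days after irradiation, all 75 genes were higher at day 5 than at day 2, with a median log2 change of 0.35, against 0.05 for all probes, of which 40.3% were below 0. The change lay between 0.07 and 0.83 over the genes. The list median changed by 0.41, 0.17, 0.08, 1.04 and 0.00 in replicates 1 to 5. Under quantile normalization and median scaling 72 genes were higher, with medians of 0.28 and 0.21, and without replicate 4 the median was 0.17 with 71 genes higher. Without adjustment, 15 members (20%) were higher at a limma p under 0.05, against 2.17% of all probes, and 0 lower, against 1.39%. In every animal, 14 were higher (18.7%), against 2.96% of all probes, and 0 lower, against 1.6%. None reached p under 0.005, against 0.276% of all probes, and the groups overlapped for every member, against 0.135% of probes wholly higher and 0.0301% wholly lower. The count at p under 0.05 was 0 without replicate 4, 2 without replicate 1, 4 without replicate 2, 1 with median scaling and 58 with normexp. Of all probes, 1.69%, 1.31%, 2.82%, 0.761% and 2.47% were higher at this level in these fits. No member was called, as no probe was (0.0%), and the smallest adjusted p of the list was 0.97. The largest changes were those of RPS3A (0.83), RPL9 (0.81), RPL31 (0.81) and RPL11 (0.81).

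Day 30 against day 2 gave a median of 0.25, against 0.00 for all probes, with 69 genes higher and 6 lower. The list median changed by 0.23, -0.06, 0.41, 0.35 and 0.19, so that 4 of 5 animals were higher. Of the 75, 20 (26.7%) were higher at an unadjusted limma p under 0.05, against 5.4% of all probes, and 0 lower, against 7.44%. In every animal, 14 were higher (18.7%), against 7.03% of all probes, and 0 lower, against 6.7%. The count at p under 0.05 was 1 without replicate 1, 2 without replicate 3, 2 without replicate 4 and 44 with normexp. Of all probes, 4.14%, 5.8%, 4.59% and 6.55% were higher at this level in these fits. The median was 0.61 with normexp (all probes -0.10). It was 0.54 with the deposited values, with 20 of 20 members higher, and 0.54 for the same 20 in the values reported here. None of the 75 was called, against 0.0501% of all probes, and 0 had p under 0.005, against 1.45%. RPS18, of the small subunit head, had the smallest p, with 0.55 (SE 0.17, limma adjusted p = 0.36) and 5 of 5 animals higher. RPL26, which binds MDM2 and lies at the tunnel exit, was the only member whose groups did not overlap, with 0.62 (SE 0.22), or 1.33% against 0.907% of all probes, and none lay wholly lower, against 0.892%. Both comparisons share the day 2 arrays, including the low array of replicate 1. Day 30 and day 5 differed by a median of -0.10 (all probes -0.05), with 0 members at an unadjusted p under 0.05 in either direction, against 1.84% and 6.64% of all probes, and 0 called (0.0%). That median turned positive with quantile normalization, median scaling, the deposited values and without replicate 4. It was -0.25 with normexp, with 74 members lower, where the median of all probes was 0.07 and 35.9% were below 0. Without replicate 3 it was -0.23, with 74 members lower, where 50.5% of all probes were below 0. At an unadjusted p under 0.05, 6 and 1 members were lower in these 2 fits. The shares of all probes lower at that level in them are not given. In the values reported here, 0 members had p under 0.005, against 0.681% of all probes. Between these days 0 members were higher and 1, RPS28, was lower in every animal, against 3.66% and 5.88% of all probes, and 0 did not overlap, against 0.21% higher and 0.401% lower.

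Grouped by role, 7 members were listed as binders of MDM2: RPL5, RPL11, RPL23, RPL26, RPS3, RPS7 and RPS27A. The list need not hold every such member. All 7 were above 0 at days 5 and 30, with medians of 0.41 and 0.36, after -0.10 at day 2. Each stayed above 0 at days 5 and 30 under every alternative run, which for RPS7 covered day 30 alone. The alternatives reuse the same arrays, and the list was set with earlier results known, so this is a description only. The mean levels of the 7 chosen probes lay between 5.26 for RPS3 and 7.29 for RPL5, and the part of probe signal was not tested. Their median changed by -0.07, 0.57, 0.21, 1.09 and 0.36 in the 5 animals at day 5 and by 0.27, 0.01, 1.15, 0.22 and 0.46 at day 30. Of all 75 members, 63 were above 0 at day 5 and 42 at day 30. Without replicate 3 the day 30 changes of RPL23, RPL5 and RPS27A were 0.04, 0.15 and 0.16. At an unadjusted p under 0.05, 3 of 7 were higher at day 5 and 1 of 7 at day 30, against 7.35% and 7.43% of all probes, and 0 were called. RPL5 had 0.32 (SE 0.20) at day 30 and RPL23, at the interface of the subunits, 0.18 (SE 0.19). RPS27A, made as a fusion with ubiquitin, had 0.36 (SE 0.23). The 16 members mutated in Diamond-Blackfan anaemia had medians of -0.15, 0.33 and 0.19 at days 2, 5 and 30, and within them RPS19, the gene most often mutated, had 0.11, 0.17 and -0.16. The 7 members at the tunnel exit had -0.21, 0.17 and 0.13.

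The 5 stalk members had medians of -0.21, 0.01 and -0.08 at days 2, 5 and 30, among them RPLP1 with its higher values at day 30. RPLP0, the base of the acidic stalk, had levels of 8.06, 7.58, 7.59, 7.41 and 7.23 before irradiation and 6.62, 7.63, 7.48, 6.86 and 7.19 at day 2. Its groups overlapped, and its mean change of -0.42 (SE 0.24, limma adjusted p = 0.44) came mainly from replicate 1, with -1.45. RPL10A of the other stalk had -0.23 at day 2 and -0.11 at day 30. The 6 members at the mRNA channel and decoding site, RPS23 among them, had medians of -0.20, 0.05 and -0.16. Among other genes, RPS6, the target of S6 kinase, had -0.18, 0.28 and 0.28, RPS14, lost in the 5q- syndrome, -0.05, 0.48 and 0.45, RPL13A, known as a regulator of translation outside the ribosome, -0.30, 0.11 and 0.00, and the X-linked RPS4X -0.21, -0.03 and -0.16. The role groups overlap, need not hold every member with the role and were set with earlier results of these data known, so none of these medians was tested.

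Measured against the list median of the same animal, which removes any shift common to all members, 15 genes were above it in every measured pair at day 30 and 14 below it, the latter including RPL23A with 4 measured pairs. RPS3A was above by a mean of 0.86 ± 0.54 (SD, n = 5), RPL11 by 0.85 ± 0.45 and RPL9 by 0.76 ± 0.48. RPL28 differed from it by -0.41 ± 0.26, RPS28 by -0.36 ± 0.17 and RPL3 by -0.26 ± 0.11. At day 5, 12 were above and 10 below in every measured pair, and at day 2 only 2 above, RPL12 and RPS19, and 1 below, RPL3. The mean levels of the chosen probes lay between 5.01 for RPL17 and 8.42 for RPLP1 in the 15 genes above at day 30. In the 14 below they lay between 7.05 for RPL3 and 9.62 for RPL23A. The part of probe signal in this split was not tested, and no share of all probes is given for these counts. These values are descriptions, since the list median contains the members themselves.

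The 18 translation factors and other genes with the same 5′ tract had medians of -0.17, 0.08 and 0.00 at days 2, 5 and 30, and 0 were called. Without adjustment, at p under 0.05, 1 was higher and 1 lower at day 2, 1 higher at day 5 and 1 lower at day 30. Of all probes, 8.47%, 7.35% and 7.43% were higher and 6.55%, 3.82% and 10.1% lower at this level on the 3 days, which is also the background of the lists that follow. TPT1, a growth-related calcium binding protein, was 1.06 higher at day 5 (SE 0.21, limma adjusted p = 0.28), with 5 of 5 animals higher, after 0.48 at day 2. EEF2, the translocase of elongation, had -1.01 at day 30 (SE 0.19, limma adjusted p = 0.13), with 5 of 5 animals lower, and EIF4B, a helicase cofactor, had -0.36 at day 2. EIF3H had 0.27 and NACA, which guards nascent chains, 0.23 at day 30, while PABPC1, the poly(A) binding protein, had -0.28 at day 2 and FAU, a fusion of a ubiquitin-like protein with a ribosomal protein, 0.29 at day 5.

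Among 8 paralogs of ribosomal protein genes the medians were -0.18, 0.14 and -0.07, with 1 higher at day 5 and 1 lower at day 30 at an unadjusted p under 0.05. RPS27L, a p53 target, had 0.28, 0.60 (SE 0.18, limma adjusted p = 0.34) and 0.31, and was higher in 5 of 5 animals at day 5. RPL3L had -0.58 at day 30 (SE 0.21), RPL39L 0.36 at day 5, RPL36AL 0.18 and RPL22L1 0.17 at day 5. Of 31 ribosome assembly genes, 28 were measured, with medians of -0.17, -0.10 and -0.04. At p under 0.05, unadjusted, 0 were higher on any of the 3 days, and 2, 2 and 1 were lower. HEATR1, needed for ribosomal RNA transcription and processing, had -0.48 (SE 0.16, limma adjusted p = 0.24) and -0.49 at days 2 and 5, BYSL -0.42 and FBL, the methyltransferase fibrillarin, -0.36 at day 2, and MYC, which drives ribosome synthesis, -0.40 at day 5. POLR1C, shared by RNA polymerases I and III, had -0.75 at day 30 (SE 0.17, limma adjusted p = 0.13), and NOP2 and BOP1 had -0.37 and -0.38. RRN3, an initiation factor of RNA polymerase I, had -0.50 and NCL, nucleolin, -0.27 at day 5.

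Blood is a mixture, and in bulk RNA fewer cells of a type and less RNA per cell cannot be told apart. Markers of blood cell types differed on the same days. Of 18 T cell genes, 18 were below 0 at day 2 with a median of -0.50, and 11 were lower at an unadjusted p under 0.05, against 55.1% and 6.55% of all probes. Their median was -0.32 at day 5 and -0.38 at day 30. NK cell genes (11 measured of 12) had medians of -1.41, -0.73 and 0.08. At day 2, 1 of them was called, against 0.0601% of all probes. At an unadjusted p under 0.05, 10 were then lower, against 6.55% of all probes. B cell genes (12 of 14) had -0.56, -0.54 and -0.42. Monocyte genes (10 of 12) had 0.65, 0.43 and 0.76 and neutrophil genes (13 of 15) 0.96, 0.82 and 1.11, while platelet genes (12 of 15) had 1.46, 0.45 and -0.01 and erythroid genes (12 of 13) -0.06, 0.18 and -0.68. The part of these shifts in the ribosomal protein values was not tested.

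Each marker list was also summed as signal relative to the 75th percentile of the array. The T cell list, led by CCR7, had a sum that was 362 ± 65.9 before irradiation and 256 ± 53.2, 299 ± 116 and 278 ± 75.8 at days 2, 5 and 30 (SD, n = 5). The NK cell sum was 187 ± 54.0, then 68.4 ± 24.5, 115 ± 70.7 and 216 ± 72.7. The B cell sum was 121 ± 29.2, then 83.5 ± 17.7, 82.1 ± 11.3 and 94.5 ± 25.5. The monocyte sum was 244 ± 86.5, then 406 ± 123, 350 ± 133 and 412 ± 120. The neutrophil sum was 383 ± 154, then 744 ± 369, 604 ± 254 and 788 ± 498. The platelet sum was 111 ± 42.0, then 314 ± 171, 153 ± 52.1 and 93.2 ± 17.8. The erythroid sum was 6010 ± 648, then 6023 ± 1150, 7063 ± 1763 and 4725 ± 1639. Of the genes that had passed the filter, all T cell, B cell, monocyte and erythroid genes were well above background on every array, as were at least 10 of 11 NK cell, 11 of 13 neutrophil and 11 of 12 platelet genes.

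The gene of each list with the brightest probe had these log2 changes at days 2, 5 and 30, where the signals of different probes do not rank abundance. CCR7, a homing receptor of naive T cells, had -0.26, -0.22 and -0.39. GZMB of NK cells had -1.27, -0.72 and 0.34. CD79A, part of the B cell receptor, had -0.58, -0.62 and -0.65. MNDA of monocytes had 1.01, 0.75 and 1.14, and CSF3R of neutrophils 1.0, 0.62 and 0.68. PF4 of platelets had 1.47, 0.61 and -0.13. HBB, the beta globin that remained after depletion, had -0.02, 0.20 and -0.16.

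**Figure D5:**
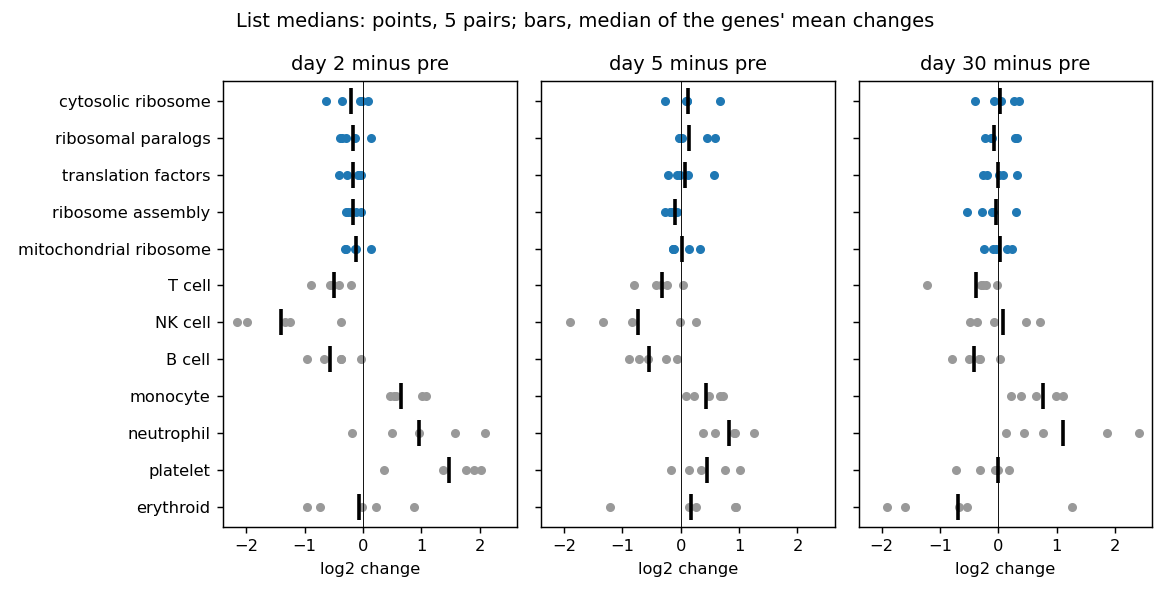
Log2 change from pre-irradiation (x axis) at days 2, 5 and 30 for the cytosolic ribosome and 4 related lists (blue) and 7 blood cell marker lists (grey). Points are the median over the list's genes in each of 5 animals and bars the median of the genes' mean changes. At day 2 the ribosomal list lies at -0.20, T, NK and B cell lists below it and monocyte, neutrophil and platelet lists above 0.

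The slides do not separate the groups, since each of 5 slides carried 1 array of every group. Within single slides the list median changed by -0.56 to 0.33 at day 2, -0.16 to 0.83 at day 5 and -0.18 to 0.49 at day 30, with medians over slides of -0.36, 0.00 and 0.07. Within slides, day 5 against day 2 ranged from -0.05 to 0.57 and day 30 against day 2 from -0.48 to 0.64. The arrays of 1 slide mostly came from different animals, so these ranges also hold differences between animals. With the slide as block in place of the animal, 26 members were higher at day 5 than at day 2 at an unadjusted p under 0.05, against 2.26% of all probes. At day 30 against day 2 there were 3, against 1.97%. With slide and animal both as blocks the counts were 17, against 2.81%, and 11, against 4.35%. Each group sat on its own position of the slide, so position and group cannot be told apart.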

How the data were processed

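The authors deposited the Agilent Feature Extraction output of each of the 20 arrays (version 12.0.2.2 in the file headers, 10.7 in the submitters' processing notes), whose processed signal is a background-subtracted intensity, not normalized between arrays. They also deposited a table of log2 values for 5884 probes, with 20 of the 75 chosen probes. Control spots and spots marked as outliers were left out, spots of 1 probe were averaged as log2 values, and each array was scaled by subtracting the 75th percentile of its non-control spots. Probes well above background on at least 5 arrays with at least 4 complete pairs were tested with limma 3.58.1 (R 4.3.3) over all 19961, with the replicate number as block. Pairing comes from the study's report. Same-numbered arrays had correlated deviations (median 0.28, from -0.16 to 0.65, over 30 pairs of arrays), other pairs a median of -0.07. The fit was tested on simulated data.

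Arrays had 50.9% to 67.3% of spots well above background. Precision is limited by the number of arrays. Named genes are members called, the 10 per day with the smallest p among those changed 1 way in every pair, members of set roles, up to 4 genes of each related list per day and the brightest marker of each cell type. RPL31, RPL12, RPS18 and RPL8 were named after their values were seen. Members, lists and alternatives were chosen with earlier results of these data known. RPSA and RPL10 were not analysed here. Summaries used pandas 2.3.3 under Python 3.11.15, and matplotlib 3.10.9 drew the figures.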

Additional observations from a re-analysis of the deposited data

Results flagged for a closer look

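Of 61 sets of 5 values screened (the list median in each group and comparison, and the changes of the genes named by day), 6 held 1 value far from the other 4, where chance marks about 1 set in 20. RPL9 at day 30 changed by 1.90 in replicate 3 and by 0.34 to 0.65 in the others. RPS28 changed by -0.64 in replicate 1 at day 2 (others -0.08 to 0.04) and by -1.02 in replicate 1 at day 30 (others -0.28 to -0.06). In replicate 4 at day 5, RPS3 changed by 0.84 (others 0.05 to 0.22), RPL3 by 0.26 (others -0.25 to -0.15) and RPL19 by 0.33 (others -0.09 to 0.02). That array also held the highest list median of all. The list medians themselves were not marked.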

How the results depend on the processing

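The number of called members was 0 in all 6 comparisons and stayed 0 under every alternative run except at day 30. There, normexp background correction called 2 (RPL11, adjusted p = 0.041, and RPL9, adjusted p = 0.090), the filter on probes well above background on all arrays called 1 (RPL11, adjusted p = 0.083) and an intensity trend in the spread called 1 (RPL11, adjusted p = 0.091). Over all alternatives the adjusted p of RPL11 ranged from 0.041 to 0.46 and that of RPL9 from 0.090 to 0.46. With normexp the list median was -0.69 at day 2 (all probes 0.17), 0.85 for day 5 against day 2 (all probes -0.13) and 0.61 for day 30 against day 2 (all probes -0.10), and the cause was not tested. With the deposited log2 values, which hold 20 members, it was -0.06 at day 2, 0.46 at day 5, 0.48 at day 30, 0.57 for day 5 against day 2 and 0.54 for day 30 against day 2. Over the same 20 members the medians of the values reported here were -0.09, 0.49, 0.44, 0.63 and 0.54, and at least 96.9% of the deposited values of an array equalled the same log2 signal plus 1 constant (within 0.001). Median scaling put the median of all probes at -0.09 at day 5, against 0.03, and at 0.13 for day 30 against day 5, against -0.05, and the list median of the latter was then 0.08. Leaving out 1 replicate, the list median ranged from -0.24 to -0.12 at day 2, -0.02 to 0.23 at day 5, -0.07 to 0.14 at day 30, 0.17 to 0.43 for day 5 against day 2, 0.19 to 0.30 for day 30 against day 2 and -0.23 to 0.03 for day 30 against day 5, with 0 calls throughout. Of the genes named for a change in every animal, none changed sign on that day under an alternative, while 17 of the other values of members with set roles did under at least 1. The brightest probe saturated on no array was the chosen probe for all 75 genes.

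Without the replicate block, the list medians were the same and no member was called. At an unadjusted p under 0.05, members higher numbered 3 at day 5, 11 at day 30, 5 for day 5 against day 2 and 13 for day 30 against day 2, against 8, 6, 15 and 20 with the block. Of all probes, 2.78%, 5.79%, 1.24% and 3.76% were higher at that level without the block. Members lower at that level at day 2 numbered 1 with the block, and 0 without it or with the slide as block. They numbered 8 with quantile normalization, 33 with normexp and 5 without replicate 5. The shares of all probes lower at this level in these alternatives are not given. Members higher for day 30 against day 2 numbered 44 with normexp, against 6.55% of all probes. With all 20 arrays in 1 fit, members higher numbered 5 at day 5, 25 for day 5 against day 2 and 11 for day 30 against day 2, against 6.11%, 3.16% and 5.26% of all probes. With pairs tested probe by probe, without a shared spread, 5 were lower at day 2, a count for which no share of all probes is given. In that test 1 was higher at day 5, against 5.49% of all probes, and 2 for day 5 against day 2, against 1.6%. The median SE of a member's change lay between 0.15 and 0.21 log2 units over the 6 comparisons.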

Other observations

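The mitochondrial ribosome, whose proteins are made from nuclear genes and read the mitochondrial genome, was measured with 74 of 76 genes. The genes of it named here were chosen after their values were seen. Its median log2 changes were -0.13, 0.03 and 0.03 at days 2, 5 and 30, against -0.20, 0.12 and 0.03 for the cytosolic list. At day 2, 56 of 74 genes were below 0, and at an unadjusted p under 0.05, 0 were higher and 3 lower, against 55.1%, 8.47% and 6.55% of all probes. The smallest p at day 2 was that of MRPS25, with -0.69 (SE 0.20, limma adjusted p = 0.22), and at day 30 that of MRPL48, with -0.60 (SE 0.18, limma adjusted p = 0.18). MRPL13 was higher in 5 of 5 animals at day 30, by 0.54.

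Over all 19961 probes tested, the change at day 30 against pre-irradiation had a correlation of -0.32 with the GC content of the probe, and at day 30 against day 2 of -0.30 and at day 30 against day 5 of -0.41. Over the 75 chosen probes these were -0.18, -0.09 and -0.06. The correlations are across probes, which share arrays and are not independent replicates.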
